A study of Mus musculus with 13 samples.

Results

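iNKT17 cells of the thymus were compared with iNKT2 cells of young adult mice, over the 10679 genes, out of 24421 in the deposited table, with 10 or more normalized counts in 2 or more of the 4 libraries of these subsets. The mice were female wild-type BALB/c animals, 6 weeks old by the labels and 6 to 7 weeks by the methods. iNKT cells were sorted as B220-, CD3+ cells that bound CD1d tetramer. Those without CD122 were taken as iNKT2 cells when they carried CD4 and as iNKT17 cells when they lacked it, so Cd4 and Il2rb, the gene of CD122, checked the sort and were not findings. Each library held cells pooled from 3 young mice. The iNKT2 libraries came from 327000 and 315000 cells and the iNKT17 libraries from 217000 and 157000. The same comparison at 25 weeks served as the second setting: 2 libraries of iNKT17 cells and 2 of iNKT2p cells, the name of the CD122-CD4+ sort in aged mice, each pooled from 7 wild-type mice. By the study's account the iNKT2p sort mixed several populations and, unlike the others, held a minor share of iNKT17 cells, so it is not a pure iNKT2 group. A pool is 1 sample, and whether the 2 libraries of a group came from 2 sorts is stated for the study but not marked on a library. P-values therefore measure the spread between pools.

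The 4 young libraries had between 6790962 and 8105972 reads in genes. A single read stood for 0.763 to 0.948 normalized counts, where a normalized count is a read count divided by the size factor of its library. A value of 0 allows a level of up to 2.29 to 2.84 normalized counts (3 reads), which covers counting error only. Rn45s, a gene of ribosomal RNA, made up 9.803 to 17.1% of a library. Of the members, 89.8% lay within 2-fold of each other in the iNKT2 libraries and 95.8% in the iNKT17 libraries. Replicate 2 of both young groups stood apart in one respect: Krt8, a keratin of epithelial cells, read 0 and 41.7 in the iNKT2 libraries and 0.768 and 54.1 in the iNKT17 libraries, and the Y-linked gene Eif2s3y, which female mice lack, 0 and 5.69 and 0 and 6.10. Both replicates 2 carried reads of these genes at a like level. Its source, and whether other genes were affected alike in both subsets, was not tested.

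iNKT cells are T cells with a nearly uniform T cell receptor that recognises glycolipids on CD1d. They mature in the thymus into effector subsets that resemble helper T cells. iNKT2 cells make IL-4 and IL-13 early in life under PLZF and GATA3. iNKT17 cells make IL-17 when stimulated through IL-23 and IL-1. Both subsets express PLZF, the product of Zbtb16, and lack the T-bet-driven programme of iNKT1 cells. The study describes PLZF protein as high in iNKT2 and intermediate in iNKT17 cells.

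iNKT17 cells had higher levels of 700 member genes and lower levels of 428 than iNKT2 cells, and 9551 did not pass the test. Calls were made by limma on log2(normalized count + 1) at an adjusted p under 0.05 over the 11123 genes tested, with 2 libraries per group. The spread was shared over 8 libraries, those of the aged groups included. Over all genes tested, 6.33% were called higher and 3.86% lower, against 6.55% and 4.01% of the members. The median log2 difference over all members was -0.00076, and 86.9% of them lay within 2-fold between the subsets. Among the calls, 286 genes rose and 144 fell by a log2 difference of at least 2, or 4-fold. The median log2 difference was 1.62 over the higher calls and -1.36 over the lower calls. Of the members, 179 were under 10 in both iNKT2 libraries and 119 of these were called higher, while 187 were under 10 in both iNKT17 libraries and 50 were called lower. Such genes passed the filter only through the group in which they were high. The number of called genes depended on single libraries. Out of 1133 over all genes tested, 577 calls were made without iNKT17 replicate 1 and 613 without iNKT17 replicate 2, while 1772 were made without iNKT2 replicate 2. With the spread taken from 12 libraries, iNKT1 included, 279 genes were called lower in place of 429. Fitting only the 4 young libraries of this comparison gave 799 calls, 491 higher and 308 lower. With a term shared by the young replicates 2, which carry keratin reads, 1671 genes were called, 993 higher and 678 lower, an alternative chosen after seeing the data that left the log2 differences as they were. Of the members called, 323 of 700 higher and 110 of 428 lower kept their call in all 17 other alternatives.

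**Figure D1:**
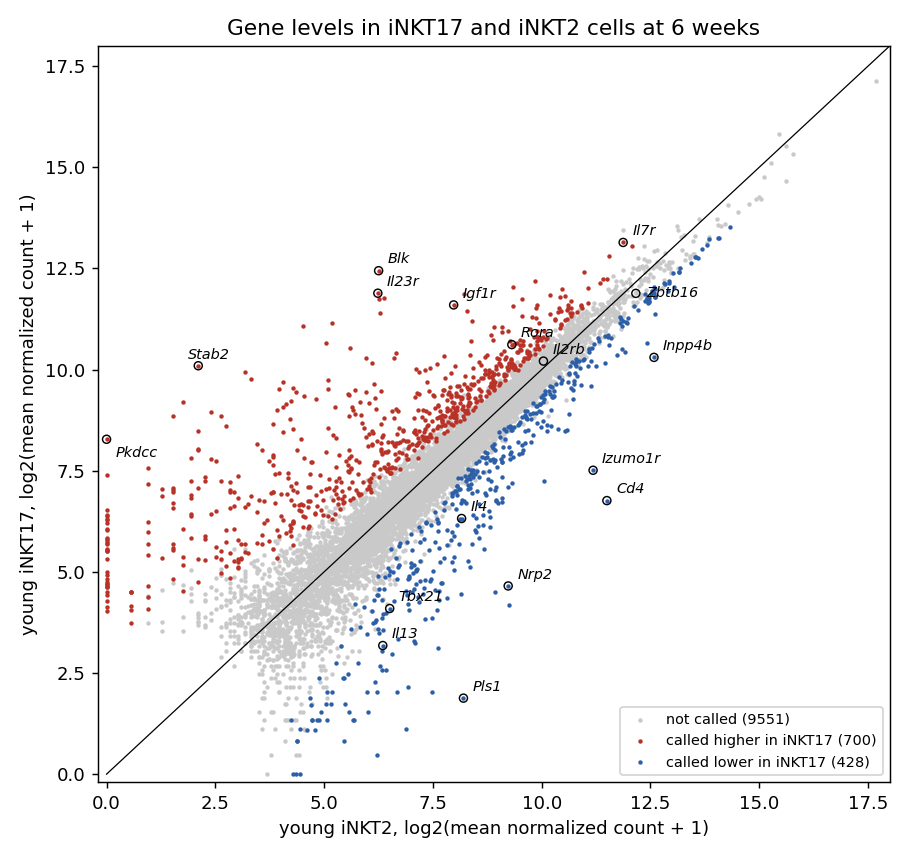
Mean level of each of the 10679 members in young iNKT2 (horizontal axis) and young iNKT17 cells (vertical axis), both as log2(mean normalized count + 1), with the diagonal marking equal levels. The 700 genes called higher in iNKT17 cells reach far to the left, as Pkdcc at 0 in both iNKT2 libraries, and the 428 called lower lie below the diagonal.

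The gene lists used below were drawn up with earlier results of these libraries known, so none gives independent support to its direction. Transcription factors linked to type 17 cells were higher in iNKT17 cells or not called. Of 15 members of that list, 9 rose and none fell by limma, with a median log2 difference of 0.88 against -0.00073 over all genes tested, while 2 members were lower at an unadjusted p under 0.05 and none by edgeR. Rora, the nuclear receptor RORα, read 732 and 539 normalized counts in the iNKT2 libraries and 1689.8 and 1451 in the iNKT17 libraries (2.47-fold, adjusted p = 0.000544). Its groups did not overlap, which also held for 5256 of the 10679 members (49.2%). Maf, which encodes c-MAF, a factor for IL-17 production, read 695 and 1059 normalized counts in the iNKT2 libraries and 2498 and 2560.2 in the iNKT17 libraries (2.88-fold, adjusted p = 0.000316). The widest difference of the list belonged to a gene with few reads in iNKT2 cells, Nfil3, the basic leucine zipper factor E4BP4, at 0 and 3.79 normalized counts in the iNKT2 libraries and 131 and 134 in the iNKT17 libraries (log2 difference 5.93, SE 1.20, adjusted p = 0.00768). Ahr, the aryl hydrocarbon receptor, and Ikzf3, which encodes Aiolos, rose 3.58-fold (adjusted p = 0.000132) and 3.17-fold (adjusted p = 0.000302). The calls of Nfil3 and Bhlhe40 (log2 difference 2.60, SE 0.50, adjusted p = 0.00551) held in 14 and 14 of 17 alternatives, and those of Batf, Stat3 and Runx1, the other higher factors, in 10, 12 and 8. Irf4, Hif1a, Sox13, Sox4, Etv5 and Rxra were not called. The 9 higher factors became 5 without iNKT17 replicate 1, 4 without iNKT17 replicate 2 and 4 with no variance trend, and 1 factor was called lower without iNKT2 replicate 2.

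Receptors through which type 17 cells are stimulated and recruited moved the same way. Of the 11 members, 7 rose and none fell by limma, none was lower at an unadjusted p under 0.05 or by edgeR, and the list median was 3.23. Il23r, the specific chain of the IL-23 receptor, read 76.6 and 72.0 normalized counts in the iNKT2 libraries and 4004 and 3574 in the iNKT17 libraries (51.0-fold, log2 difference 5.65, SE 0.16, adjusted p = 3.02e-09). Il1r1, the signalling receptor for IL-1, read 76.6 and 87.2 normalized counts in the iNKT2 libraries and 3745 and 3280.2 in the iNKT17 libraries (42.9-fold, log2 difference 5.41, SE 0.19, adjusted p = 1.65e-08). The libraries of each subset were close together for both, while the subsets were more than 40-fold apart. Il17re, a chain of the receptor for IL-17C, read 6.62 and 21.8 normalized counts in the iNKT2 libraries and 456 and 561 in the iNKT17 libraries (35.8-fold, adjusted p = 1.80e-05). Ccr6, the receptor for CCL20, had no read in either iNKT2 library and 69.2 and 75.5 normalized counts in the iNKT17 libraries, at least 25.5-fold higher against a floor of 3 reads per library (adjusted p = 3.13e-05). Ltb4r1, the leukotriene B4 receptor BLT1, read 5.67 and 0 normalized counts in the iNKT2 libraries and 89.9 and 81.6 in the iNKT17 libraries (30.2-fold, adjusted p = 0.00118). Smaller rises were measured for Il7r, the receptor for IL-7, at 2.41-fold (adjusted p = 0.000394), and Il12rb1, the chain shared by the receptors for IL-12 and IL-23, at 1.18 on the log2 scale (adjusted p = 0.000375). Of the uncalled receptors, Il17rc read 0 and 5.69 normalized counts in the iNKT2 libraries and 23.1 and 23.6 in the iNKT17 libraries (adjusted p = 0.0581), and Il1rap, Il17ra and Il6st had log2 differences of 0.094, 0.47 and 0.29.

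The promoters of 3 of these iNKT17 genes are shown to give the sequence context of the differences, from 250 bases before to 50 after the annotated start, from RefSeq on GRCm38.p6, the patch release of the mm10 assembly to which the reads were aligned. Capitals mark the core site of ROR receptors, AGGTCA or its reverse complement TGACCT, and the GATA site, AGATAA or TTATCT. Il23r lies on the minus strand (chr6:67491806-67492105), Il17re on the plus strand (chr6:113458521-113458820) and Stab2, the gene with the largest rise, on the minus strand (chr10:87007893-87008192).
Il23r: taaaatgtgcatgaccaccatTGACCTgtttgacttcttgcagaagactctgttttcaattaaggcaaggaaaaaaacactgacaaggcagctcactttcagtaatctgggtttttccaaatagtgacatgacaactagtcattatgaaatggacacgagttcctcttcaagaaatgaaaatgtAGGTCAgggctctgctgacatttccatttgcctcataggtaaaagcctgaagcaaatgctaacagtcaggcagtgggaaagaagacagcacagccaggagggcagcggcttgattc
Il17re: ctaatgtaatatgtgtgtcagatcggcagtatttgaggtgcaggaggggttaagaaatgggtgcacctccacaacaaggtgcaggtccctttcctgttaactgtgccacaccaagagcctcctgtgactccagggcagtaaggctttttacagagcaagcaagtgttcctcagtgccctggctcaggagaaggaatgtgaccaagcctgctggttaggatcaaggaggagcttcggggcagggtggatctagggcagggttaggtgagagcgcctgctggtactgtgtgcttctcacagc
Stab2: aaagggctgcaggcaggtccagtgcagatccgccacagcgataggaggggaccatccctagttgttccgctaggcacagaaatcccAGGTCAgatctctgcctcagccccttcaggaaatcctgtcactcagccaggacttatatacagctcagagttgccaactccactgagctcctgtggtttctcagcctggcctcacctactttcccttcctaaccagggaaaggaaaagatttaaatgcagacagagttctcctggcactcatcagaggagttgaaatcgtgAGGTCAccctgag
The script found 2 ROR core sites in the Il23r window, starting at positions -229 and -66 from the start of the gene, and 2 in the Stab2 window, at -164 and 37, and no match of either motif in that of Il17re. Among 27025 genes with such a window, 18.1% held at least 1 ROR core site and 12.7% a GATA site, so a match is common. Windows were found for 8137 of the 10679 members (76.2%). With the other members lacking a window, called and uncalled genes were not compared.

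Other surface, enzyme and signalling genes that were listed as type 17 genes were the most uniform group. Of 22 members, 20 rose and 1 fell, with a list median of 5.59, although the list was drawn up with earlier results of these libraries known and so gives no independent support to its direction. Stab2, stabilin-2, a scavenger receptor for hyaluronan, read 6.62 and 0 normalized counts in the iNKT2 libraries and 1254 and 931 in the iNKT17 libraries (log2 difference 8.61, SE 0.69, adjusted p = 1.11e-05). Serpinb1a, a protease inhibitor, read 4.73 and 0 normalized counts in the iNKT2 libraries and 741 and 429 in the iNKT17 libraries (log2 difference 7.88, SE 0.63, adjusted p = 1.11e-05). It has close copies in the mouse genome, and reads that map to several copies were mostly dropped by the mapping quality filter. Kcnk1, a potassium channel, read 1.89 and 1.896 normalized counts in the iNKT2 libraries and 524 and 392 in the iNKT17 libraries (log2 difference 7.29, SE 0.29, adjusted p = 4.46e-08). In iNKT2 cells these genes were at a handful of reads, so their folds are imprecise while the direction was the same in every library. Pde5a, a phosphodiesterase for cyclic GMP, read 5.67 and 10.4 normalized counts in the iNKT2 libraries and 991 and 968 in the iNKT17 libraries (122-fold, adjusted p = 3.62e-08). Abi3bp, an extracellular matrix protein, had 2 reads in all in iNKT2 cells and 172 and 205 normalized counts in iNKT17 cells, a ratio of 199 (95% counting interval 54.9 to 1650.3). Tmem176a, a transmembrane protein of myeloid and type 17 cells, read 15.1 and 2.84 normalized counts in the iNKT2 libraries and 962 and 791 in the iNKT17 libraries (97.5-fold), and its neighbour Tmem176b rose by 4.95 on the log2 scale. Mmp25, a metalloproteinase held at the cell membrane, read 8.51 and 62.6 normalized counts in the iNKT2 libraries and 2212 and 2351 in the iNKT17 libraries, a 64.2-fold difference. Its iNKT2 libraries differed several-fold from each other. Blk, a kinase of the Src family known from B cells, read 85.1 and 65.4 normalized counts in the iNKT2 libraries and 6079 and 5063 in the iNKT17 libraries (74.0-fold, log2 difference 6.20, SE 0.17, adjusted p = 2.93e-09). Sdc1, syndecan-1 or CD138, a surface marker of iNKT17 cells in BALB/c mice, read 74.7 and 77.7 normalized counts in the iNKT2 libraries and 3542 and 3379 in the iNKT17 libraries (45.4-fold, log2 difference 5.49, SE 0.14, adjusted p = 2.93e-09). Lrrc17, Mycn, Pxdc1, Mapk10, Rhobtb1, Vax2, Aqp3, Coro2b, Socs3 and Ankrd63 rose as well, by 2.60 to 5.88 on the log2 scale. Nrp1, neuropilin-1, was the member that fell, with 363 and 469 normalized counts in the iNKT2 libraries and 101.4 and 142 in the iNKT17 libraries (adjusted p = 0.00766), and Podnl1 was not called.

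Of the type 17 cytokine genes, Il17a, Il17f, Il22, Csf2 and Ccl20 were low or absent. The cells had not been stimulated for the RNA. Il17a read 0 in both iNKT2 libraries and 4.61 and 2.29 in the iNKT17 libraries, and Il17f was at 0 in all 4. These levels were close to the floor of 3 reads, so no fold was formed. Il22, Csf2 and Ccl20 also stayed under the filter. Of the 3 members of the list, Ltb, a lymphotoxin chain, rose 1.897-fold (log2 difference 0.92, SE 0.14, adjusted p = 0.00120), Lta was not called, and Il21, a cytokine of follicular helper cells as well as of type 17 cells, fell from 131 and 146 in iNKT2 to 23.8 and 41.2 in iNKT17 cells (log2 difference -2.11, SE 0.60, adjusted p = 0.0469). The call of Il21 held in 8 of 17 alternatives. Tnf and Tnfsf14, the latter encoding LIGHT, were higher in iNKT17 cells by 2.14-fold (adjusted p = 0.0133) and 10.5-fold (adjusted p = 7.32e-07), while Csf1 and Tnfsf10, which encodes TRAIL, were 4.20-fold (adjusted p = 0.00158) and 1.67-fold (adjusted p = 0.0170) lower. This left 6 of the 10 members of that cytokine list uncalled.

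**Figure D2:**
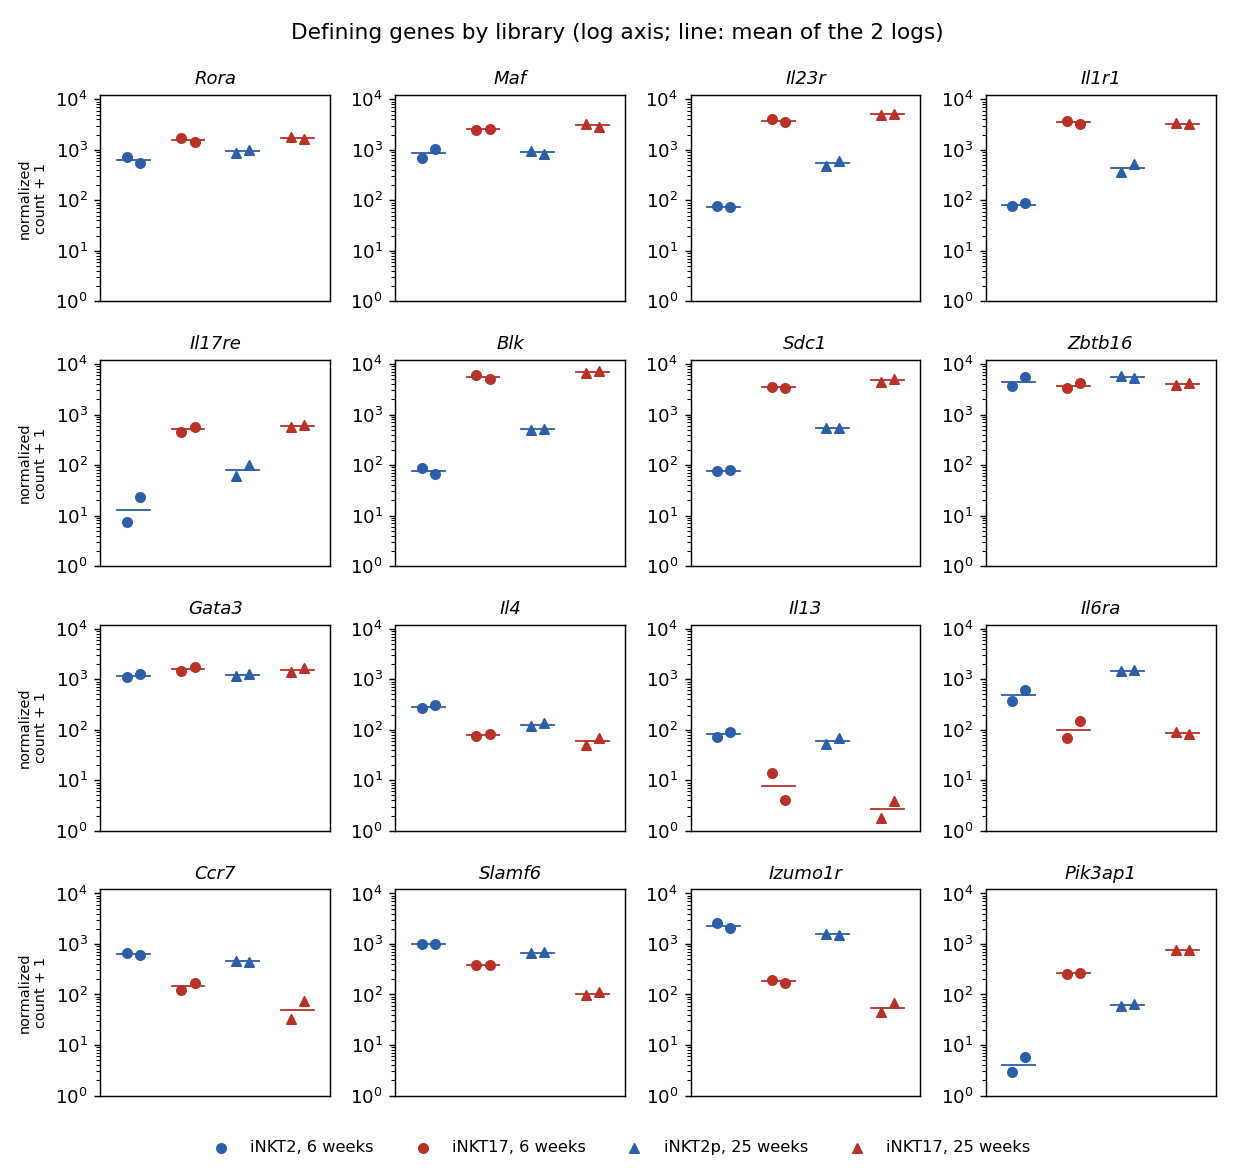
Normalized count + 1 (log axis) of 16 defining genes in each library of iNKT2 and iNKT17 cells at 6 weeks (circles) and of iNKT2p and iNKT17 cells at 25 weeks (triangles); a line marks the mean of the logs of the 2 libraries. Il23r, Il1r1, Blk and Sdc1 are far apart at 6 weeks and closer at 25 weeks, while Zbtb16 and Gata3 lie at a like level in all 4 groups.

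Outside these lists the largest rises included further enzymes and receptors. Pkdcc, a secreted tyrosine kinase, and Cpe, carboxypeptidase E, which trims peptide hormones, had no read in either iNKT2 library. Pkdcc read 405 and 214 in iNKT17 cells, at least 109-fold higher (adjusted p = 7.67e-07), and Cpe 188 and 146, at least 58.8-fold higher (adjusted p = 7.32e-07). Ptgdr2, the prostaglandin D2 receptor CRTH2 that is otherwise used as a marker of Th2 cells, read 3.78 and 4.74 normalized counts in the iNKT2 libraries and 592 and 394 in the iNKT17 libraries (116-fold, log2 difference 6.53, SE 0.30, adjusted p = 1.47e-07). It thus moved against the type 2 genes described next. Mtcl1, which crosslinks microtubules, rose 107-fold (adjusted p = 2.06e-06), and Pltp, the phospholipid transfer protein, 88.7-fold (adjusted p = 7.75e-06). Adam33, a metalloproteinase, had 2 reads in all in iNKT2 cells and 155 and 133 normalized counts in iNKT17 cells, a ratio of 153 (95% counting interval 41.9 to 1263). The locus Mir6240 read 21.8 and 21.8 normalized counts in the iNKT2 libraries and 2192 and 2109 in the iNKT17 libraries (log2 difference 6.56, SE 1.80, adjusted p = 0.0400), and its call held in 11 of 17 alternatives. At 25 weeks the iNKT17 libraries had 3913 and 10.7 normalized counts at this locus, so libraries of the same group could differ there as widely as the subsets did. Whether the reads of these total RNA libraries came from the mature form of this locus was not tested. Its mature sequence in RefSeq is shown for reference only, 26 bases on chromosome 5 with the seed (bases 2 to 8) in capitals.
mmu-miR-6240: cCAAAGCAucgcgaaggcccacggcg

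Genes of the type 2 programme were lower in iNKT17 cells, with exceptions among the regulators. Of 19 members, 12 fell and 1 rose, with a list median of -1.84. This list too was drawn up with earlier results of these libraries known and gives no independent support to its direction. Il4 read 263 and 307 normalized counts in the iNKT2 libraries and 75.3 and 82.4 in the iNKT17 libraries (3.62-fold lower, log2 difference -1.84, SE 0.27, adjusted p = 0.000958). Il13 read 71.9 and 89.1 normalized counts in the iNKT2 libraries and 13.1 and 3.05 in the iNKT17 libraries (9.99-fold lower, log2 difference -3.42, SE 0.69, adjusted p = 0.00788). The cytokines were thus transcribed in iNKT2 cells without added stimulation, and Il4 was also detected in iNKT17 cells. Il6ra, the IL-6 receptor, read 376 and 615 normalized counts in the iNKT2 libraries and 67.6 and 148 in the iNKT17 libraries (4.60-fold lower, adjusted p = 0.000945). Ccr7, the receptor for homing to lymph nodes and the thymic medulla, read 654 and 611 normalized counts in the iNKT2 libraries and 124 and 165 in the iNKT17 libraries (4.38-fold lower, adjusted p = 0.00124). Slamf6, a receptor of the SLAM family that takes part in iNKT cell selection, read 1016 and 999 normalized counts in the iNKT2 libraries and 388 and 382 in the iNKT17 libraries (2.62-fold lower, adjusted p = 0.000219). For these 3 genes the higher of the iNKT17 values stayed well under the lower of the iNKT2 values. Groups without overlap were common with 2 libraries each, at 49.2% of all members. Hey1, a transcriptional repressor downstream of NOTCH, read 505 and 231 normalized counts in the iNKT2 libraries and 66.9 and 71.7 in the iNKT17 libraries (5.31-fold lower, adjusted p = 0.00178). Izumo1r, a folate receptor family member found on regulatory T cells and eggs, read 2573 and 2071 normalized counts in the iNKT2 libraries and 195 and 168 in the iNKT17 libraries (12.8-fold lower, log2 difference -3.67, SE 0.22, adjusted p = 1.46e-06). Nrp2, neuropilin-2, a receptor for semaphorins and VEGF, read 578 and 622 normalized counts in the iNKT2 libraries and 30.7 and 17.5 in the iNKT17 libraries (24.8-fold lower, adjusted p = 0.000357). Plac8 and Ccr8 were 22.1-fold (adjusted p = 0.000150) and 6.53-fold lower (adjusted p = 0.0104), and Ccr4 and Lef1 had log2 differences of -1.36 and -1.31. Il4ra, the receptor for IL-4, was the member that rose (log2 difference 0.85, adjusted p = 0.0263, held in 12 of 17 alternatives), and the calls of Il13 and Ccr8 held in 14 and 15 of 17.

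The factors that define the type 2 and the common iNKT programmes did not pass the test. Zbtb16 read 3698 and 5484 normalized counts in the iNKT2 libraries and 3311 and 4246 in the iNKT17 libraries (log2 difference -0.26, 95% interval -0.72 to 0.19, adjusted p = 0.533). Its interval spans 0, and the log2 difference was -0.55 without iNKT2 replicate 1 and 0.020 without iNKT2 replicate 2. Only RNA was measured here, so this is no result on the PLZF protein level. Gata3 read 1086 and 1268 normalized counts in the iNKT2 libraries and 1440.1 and 1739 in the iNKT17 libraries, the higher values being those of iNKT17 cells (log2 difference 0.43, 95% interval 0.07 to 0.79, adjusted p = 0.144). Zbtb7b, which encodes ThPOK, the factor of CD4 T cells, read 551 and 898 normalized counts in the iNKT2 libraries and 449.5 and 655 in the iNKT17 libraries (log2 difference -0.37, SE 0.25, adjusted p = 0.450), and its groups overlapped. Il17rb, Icos, Egr2 and Ptgir of the type 2 list were not called.

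The promoters of Il13 and Il6ra, lower in iNKT17 cells, are shown in the same way and with the same capitals; both lie on the minus strand, Il13 at chr11:53634653-53634952 and Il6ra at chr3:89913147-89913446.
Il13: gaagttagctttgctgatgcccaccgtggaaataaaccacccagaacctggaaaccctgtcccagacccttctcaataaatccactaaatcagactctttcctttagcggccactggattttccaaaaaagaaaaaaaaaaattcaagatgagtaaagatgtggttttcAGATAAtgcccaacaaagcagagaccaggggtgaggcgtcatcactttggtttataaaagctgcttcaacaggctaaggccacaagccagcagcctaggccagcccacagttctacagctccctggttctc
Il6ra: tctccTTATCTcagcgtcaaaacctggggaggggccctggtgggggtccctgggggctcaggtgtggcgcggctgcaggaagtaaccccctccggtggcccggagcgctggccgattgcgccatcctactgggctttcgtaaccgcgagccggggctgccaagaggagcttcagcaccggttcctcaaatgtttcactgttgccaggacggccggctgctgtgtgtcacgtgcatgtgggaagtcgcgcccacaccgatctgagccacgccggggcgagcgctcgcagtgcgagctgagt
Each window held 1 GATA site, at -81 from the start of Il13 and at -245 from that of Il6ra, and no ROR core site. Among 27025 genes with such a window, 12.7% held a GATA site. The genes whose promoters are shown were not chosen by a rule, and a role of the sites was not tested.

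The largest falls belonged to genes of varied function. Pls1, plastin-1, which bundles actin, read 284 and 303 normalized counts in the iNKT2 libraries and 2.31 and 3.05 in the iNKT17 libraries (109.6-fold lower, log2 difference -6.33, SE 0.58, adjusted p = 3.04e-05). Pde7b, a phosphodiesterase for cyclic AMP, read 109 and 126 in iNKT2 cells and had 3 reads in all in iNKT17 cells, a ratio of 102 (95% counting interval 34.6 to 499). Ptpn5, a tyrosine phosphatase known from the brain, read 584 and 638 normalized counts in the iNKT2 libraries and 20.7 and 13.7 in the iNKT17 libraries (35.4-fold lower, adjusted p = 1.68e-05). In iNKT17 cells all 3 were close to the floor or at a few percent of the iNKT2 level. Rprm, reprimo, a target of p53, was 34.8-fold lower (adjusted p = 0.00284), and Chn1, a GTPase-activating protein for Rac, 33.0-fold (adjusted p = 0.000708). Rab27b, a GTPase of granule transport, read 204 and 186 normalized counts in the iNKT2 libraries and 7.68 and 7.63 in the iNKT17 libraries (25.5-fold lower, adjusted p = 0.000161). Plce1, a phospholipase C, and Tspan9, a tetraspanin, were 11.7-fold (adjusted p = 0.00152) and 13.4-fold lower (adjusted p = 0.00178). The uncharacterised genes 4930452B06Rik and 6330403K07Rik were called lower as well.

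The sort markers followed the gates. Cd4 read 2373 and 3415 normalized counts in the iNKT2 libraries and 91.4 and 124 in the iNKT17 libraries (26.9-fold, adjusted p = 3.45e-05), and its level in the CD4- sort was 3.71% of that in the CD4+ sort. Il2rb read 1036 and 1069 normalized counts in the iNKT2 libraries and 1188 and 1179 in the iNKT17 libraries and was not called (adjusted p = 0.575); young iNKT1 cells, the CD122+ sort, held 11277 and 7559. Conversely, genes high in iNKT17 cells were low but measurable in iNKT2 cells: the iNKT2 level was 1.35% of the iNKT17 level for Blk, 1.96% for Il23r, 2.203% for Sdc1 and 2.33% for Il1r1. Over the 17 called genes with a mean of at least 1000 in iNKT17 cells and a log2 difference of at least 3, this share ran from 0.303 to 11.1%. Over the 13 genes called lower with a mean of at least 500 in iNKT2 cells and a log2 difference of -2 or below, the iNKT17 level was 2.82 to 24.0% of the iNKT2 level, with a median of 20.1%, so Cd4 was near the low end. In these bulk libraries a few cells of the other subset and a low level in all cells cannot be told apart.

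Among 28 lineage transcription factors of T cells, 3 rose, 2 fell and 23 were not called. Over all genes tested, 6.33% were called higher and 3.86% lower. Among members with a mean over 1000 in the higher group, these shares were 12.4 and 9.57%. The counts of this and the following lists are to be read beside these shares. Nr1d1, which encodes the nuclear receptor REV-ERBα, read 53.0 and 70.1 normalized counts in the iNKT2 libraries and 595 and 806.9 in the iNKT17 libraries (11.4-fold, log2 difference 3.48, SE 0.29, adjusted p = 1.68e-05). Runx3 and Prdm1, which encodes BLIMP-1, rose 2.64-fold and 6.08-fold (adjusted p = 0.0254 and 0.0335), each in 10 of 17 alternatives. Tbx21, which encodes T-bet, the factor of iNKT1 cells, read 80.4 and 99.5 normalized counts in the iNKT2 libraries and 17.7 and 14.5 in the iNKT17 libraries (5.59-fold lower, adjusted p = 0.00941), and 1579 and 1560.01 in young iNKT1 cells. Satb1, a chromatin organiser of thymocytes, was 2.01-fold lower (adjusted p = 0.00345). Tcf7, Bcl11b, Bach2, Tox, Id2 and Id3 were among the uncalled factors, with log2 differences of -0.041, 0.31, 0.68, -0.51, -0.15 and -0.47. The 3 higher calls of the list became 1 without either iNKT17 library and 6 without iNKT2 replicate 2, and the 2 lower calls 0 and 1 without iNKT17 replicates 1 and 2.

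Cytokine receptors outside the type 17 list were mostly uncalled, with 5 of 18 members higher, 2 lower and 11 not called. Il2ra, CD25, the high affinity chain of the IL-2 receptor, read 14.2 and 22.8 normalized counts in the iNKT2 libraries and 346 and 391 in the iNKT17 libraries (19.95-fold, log2 difference 4.28, SE 0.23, adjusted p = 5.87e-07). Ifngr1, the receptor for interferon-γ, read 412 and 258 normalized counts in the iNKT2 libraries and 2915 and 1772 in the iNKT17 libraries (6.99-fold, adjusted p = 2.71e-05). Both chains of the IL-18 receptor rose, Il18rap 6.03-fold (adjusted p = 8.07e-06) and Il18r1 2.86-fold (adjusted p = 5.27e-05). Tgfbr3 and Il21r fell 2.69-fold and 2.68-fold (adjusted p = 0.000719 and 0.00820).

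Homing and adhesion genes split between the subsets, with 10 of 32 members higher in iNKT17 cells, 6 lower and 16 not called, and a median log2 difference of 0.38. Amica1, the junctional adhesion molecule of leukocytes, read 17.0 and 21.8 normalized counts in the iNKT2 libraries and 875 and 525 in the iNKT17 libraries (36.1-fold, log2 difference 5.07, SE 0.28, adjusted p = 6.72e-07). Ccr2, the receptor for inflammatory monocyte chemokines, read 973 and 521 normalized counts in the iNKT2 libraries and 3863 and 3042 in the iNKT17 libraries (4.62-fold, adjusted p = 0.000129). Itgb5, an integrin chain, read 0 and 8.53 normalized counts in the iNKT2 libraries and 109 and 62.5 in the iNKT17 libraries (adjusted p = 0.0181, held in 12 of 17 alternatives). Gpr183, Cxcr6, Selplg, Itgae, which encodes CD103, and Itgb7, its integrin partner, rose by 1.13 to 1.61 on the log2 scale. These genes are known for roles in the positioning and residence of cells in tissue. On the other side, S1pr1, the receptor by which thymocytes leave the thymus, read 459 and 261 normalized counts in the iNKT2 libraries and 68.4 and 57.2 in the iNKT17 libraries (5.73-fold lower, adjusted p = 0.00286). Itga4 was 4.32-fold lower (adjusted p = 0.00494), and Cxcr3 5.72-fold (adjusted p = 0.0322, held in 12 of 17 alternatives). Ccr9, Itgb2 and Itgb1 fell as well, with log2 differences of -1.91, -0.68 and -0.64. The list had 3 lower calls in place of 6 without iNKT2 replicate 1 and without either iNKT17 library.

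Costimulatory and inhibitory receptors were lower in iNKT17 cells for 9 of 20 members (5 without iNKT17 replicate 1) and higher for 2 (1 without it), with a list median of -0.71. Cd200, Cd81, Tnfrsf9, which encodes 4-1BB, and Tnfrsf4, which encodes OX40, were 14.99-fold, 6.73-fold, 5.40-fold and 5.71-fold lower (adjusted p = 0.00268, 0.000655, 0.000743 and 0.0102). Cd2, Cd27, Cd28, Btla and Tnfrsf18 also fell. Cd28, the main costimulatory receptor of T cells, read 4255 and 3466 normalized counts in the iNKT2 libraries and 1357 and 1429 in the iNKT17 libraries (adjusted p = 8.10e-05). Tnfrsf25, which encodes DR3, went the other way, with 53.9 and 58.8 normalized counts in the iNKT2 libraries and 514 and 419 in the iNKT17 libraries (8.28-fold, adjusted p = 2.15e-05), and Pdcd1, PD-1, rose by 0.68 on the log2 scale (adjusted p = 0.0160). Of 7 members of the SLAM family and its adaptors other than Slamf6, Slamf1 and Cd84 rose 2.28-fold and 1.53-fold (adjusted p = 0.00997 and 0.0235) and 5 were not called. The 2 higher calls became 1 under upper quartile scaling, with no variance trend and with the spread of 12 libraries. They also did not both hold in every fit without 1 library.

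Genes of T cell receptor signalling were called in 9 of 41 members, 5 higher and 4 lower, of which Cd4 was a sort marker. The shares over all genes tested were 6.33% higher and 3.86% lower. Among members with a mean over 1000 in the higher group they were 12.4 and 9.57%. Pik3ap1, the adaptor BCAP that links receptors to PI3K in B cells, read 1.89 and 4.74 normalized counts in the iNKT2 libraries and 253 and 269 in the iNKT17 libraries (78.7-fold, log2 difference 6.01, SE 0.35, adjusted p = 8.97e-07). Rasgrp1, an activator of RAS downstream of the receptor, read 315 and 598 normalized counts in the iNKT2 libraries and 1729.8 and 1956 in the iNKT17 libraries (4.04-fold, adjusted p = 0.000185). Sla, which dampens receptor levels, rose 2.36-fold (adjusted p = 0.000197). Zap70 and Ubash3b rose by 0.59 and 0.62 on the log2 scale. Themis, needed for positive selection of thymocytes, read 541 and 452 normalized counts in the iNKT2 libraries and 117 and 154 in the iNKT17 libraries (3.67-fold lower, adjusted p = 0.000490). Dgka and Cd247, the ζ chain of CD3, fell 1.65-fold and 1.54-fold (adjusted p = 0.0250 and 0.0456), while Cd3d, Cd3e, Cd3g, Lck, Lat and Fyn were not called. The 5 higher calls became 3 without either iNKT17 library and 8 without iNKT2 replicate 2, and the 4 lower calls became 8 and 7 without iNKT2 replicates 1 and 2 and 2 without iNKT17 replicate 1.

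**Figure D3:**
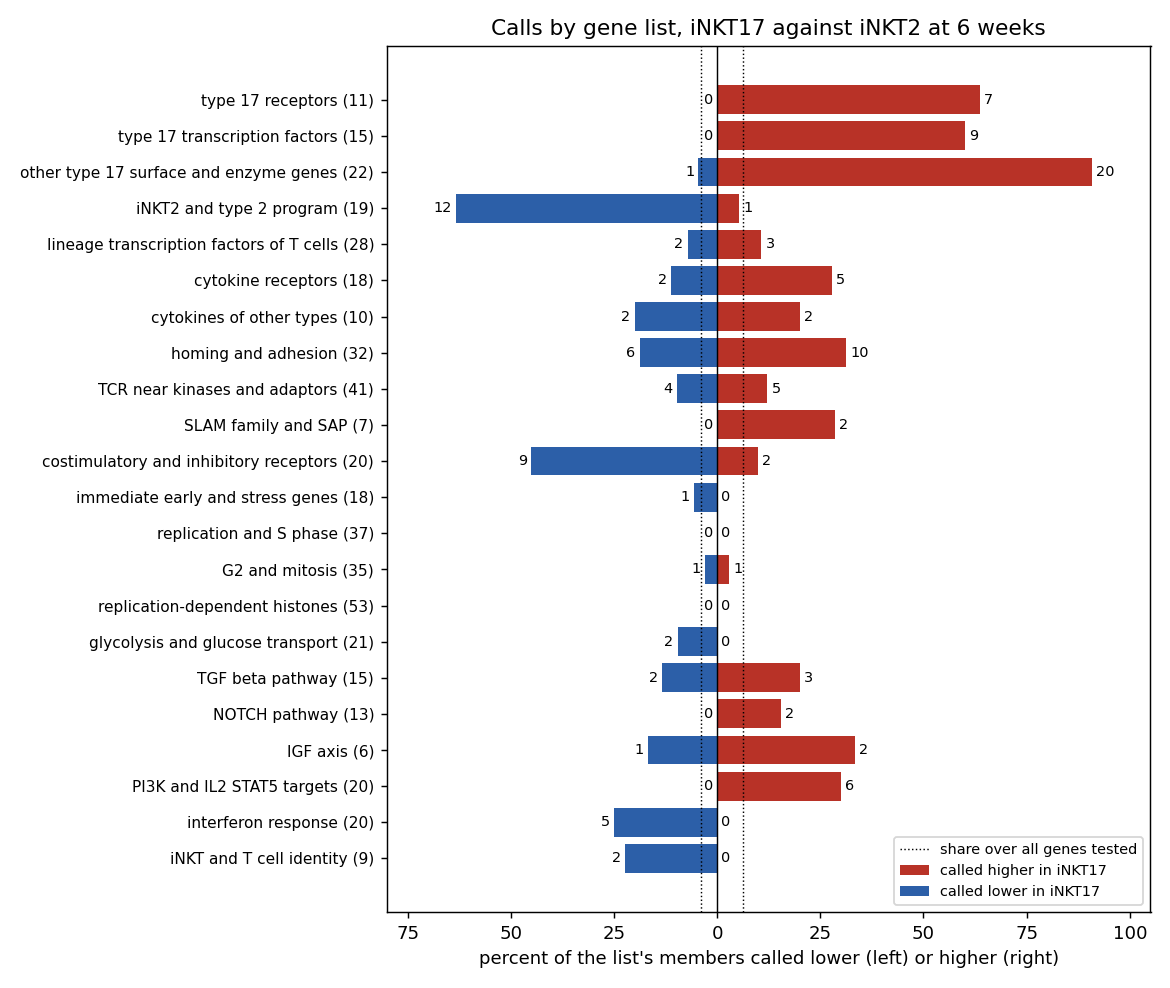
Percent of the members of each gene list called higher (right) or lower (left) in iNKT17 than in iNKT2 cells at 6 weeks, with the number of calls at each bar, the number of members in brackets and dotted lines at the shares over all genes tested, 6.33 and 3.86%. The type 17 lists extend to the right and the type 2 and costimulatory lists to the left, and the replication and histone lists have no call.

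Genes of growth factor and cytokine signalling rose in part. Of 6 members of the IGF axis, Igf1r, the receptor for IGF-1, read 159.8 and 342 normalized counts in the iNKT2 libraries and 2647 and 3552 in the iNKT17 libraries (12.3-fold, log2 difference 3.71, SE 0.29, adjusted p = 9.73e-06). Irs2, the adaptor of insulin and IGF receptors, read 60.5 and 74.9 normalized counts in the iNKT2 libraries and 347 and 365 in the iNKT17 libraries (5.26-fold, adjusted p = 2.95e-05). Igfbp4, a secreted protein that binds and holds back IGF, was 2.31-fold lower with 2072 and 1279.7 normalized counts in the iNKT2 libraries and 809.9 and 638 in the iNKT17 libraries (adjusted p = 0.0188, held in 13 of 17 alternatives). The receptor and its adaptor thus moved opposite to the binding protein. Of 20 genes of PI3K and STAT5 signalling, 6 rose and none fell by limma, with 2 lower at an unadjusted p under 0.05 and none lower by edgeR. Socs2, an inhibitor induced by STAT5, had 2 reads in all in iNKT2 cells and 47.6 and 35.1 normalized counts in iNKT17 cells, a ratio of 43.7 (95% counting interval 11.8 to 365). The kinases Pim2 and Pim1 rose 4.14-fold and 3.20-fold (adjusted p = 0.000301 and 0.00177), and Socs1 2.38-fold (adjusted p = 0.00202). Jak3 and Bcl2l11 rose by 0.72 and 0.80 on the log2 scale, while Cish, Bcl2 and Myc were not called. In the NOTCH pathway, 2 of 13 members rose and none fell by limma, against 6.33% and 3.86% of all genes tested. The list median was -0.0999, with 4 members higher and 3 lower at an unadjusted p under 0.05. By edgeR, 2 were called higher and 2 lower. Dtx1, deltex-1, read 28.4 and 45.5 normalized counts in the iNKT2 libraries and 549 and 535 in the iNKT17 libraries (14.7-fold, adjusted p = 3.46e-06). The ligand Jag1 read 403 and 540.3 normalized counts in the iNKT2 libraries and 1522 and 1891 in the iNKT17 libraries (3.62-fold, adjusted p = 0.000158). Among 15 genes of the TGF-β family, the receptors Acvr2a and Acvr1 rose 4.77-fold and 3.67-fold (adjusted p = 0.000556 and 0.0201), Acvr1b rose by 0.62 on the log2 scale, Bmpr1a and Skil fell 2.07-fold and 1.49-fold (adjusted p = 0.0436 and 0.0244), and the Smad genes were not called. Without iNKT17 replicate 1 or 2 the TGF-β list had 1 higher and 0 lower calls, and without iNKT2 replicate 1 it had 1 higher, while the NOTCH list had 4 higher calls without iNKT2 replicate 2 and 2 lower without iNKT2 replicate 1. The call of Igfbp4 was lost without iNKT2 replicate 1 and without either iNKT17 library.

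Interferon response genes were lower in iNKT17 cells or not called. Of 20 members, 5 fell (3 without either iNKT17 library) and none rose by limma, none was higher at an unadjusted p under 0.05 or by edgeR, and 19 had a log2 difference below 0, with a median of -0.74. Ifi44 read 270.5 and 212 normalized counts in the iNKT2 libraries and 42.3 and 66.4 in the iNKT17 libraries (4.45-fold lower, adjusted p = 0.000600), and Ifi27l2a 1231 and 989 normalized counts in the iNKT2 libraries and 343 and 369.9 in the iNKT17 libraries (3.11-fold lower, adjusted p = 0.000208). Ifit2 and Oas1a, a gene with close copies in the mouse, were 2.09-fold and 2.08-fold lower (adjusted p = 0.00915 and 0.0140), and Isg20 2.34-fold (adjusted p = 0.0469, held in 9 of 17 alternatives).

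Cell cycle and metabolic genes showed few calls. None of 37 genes of replication and S phase passed by limma, with 5 lower and none higher at an unadjusted p under 0.05 and 1 lower by edgeR; 32 had a log2 difference below 0 and the median was -0.27. Of 35 genes of G2 and mitosis, Cdc25b, the phosphatase that starts mitosis, rose 3.07-fold with 388 and 299 normalized counts in the iNKT2 libraries and 1128 and 982 in the iNKT17 libraries (adjusted p = 0.000137), Stmn1 fell 1.77-fold (adjusted p = 0.0326), and 31 had a log2 difference below 0, with a median of -0.62. The call of Stmn1 was lost with the spread of 12 libraries and did not hold in every fit without 1 library. Replication-dependent histones, many of them near copies whose reads cannot be fully assigned, gave no call among 53 members by limma, 15 lower at an unadjusted p under 0.05 and 2 lower by edgeR, with a median of -0.65, and the count of lower calls rose to 11 without iNKT2 replicate 2, to 5 without replicate 2 of both subsets, to 5 by DESeq2 and to 4 under upper quartile scaling. Their summed level was 44225 and 26468 normalized counts in the iNKT2 libraries and 27378 and 23203 in the iNKT17 libraries, so replicate 2 of iNKT2 lay nearer to the iNKT17 libraries than to its own replicate. In glycolysis, Slc16a1, the lactate transporter MCT1, and Tpi1 fell 2.52-fold and 1.77-fold (adjusted p = 0.000993 and 0.0209) out of 21 members. The 2 lower calls became 4 by edgeR, 5 by DESeq2 and 4 under upper quartile scaling, and DESeq2 also called 1 member higher. Among 18 immediate early and stress genes, Dusp2 was 2.38-fold lower (adjusted p = 0.0118) and the others, Fos, Jun and Egr1 among them, were not called, though 5 of the list were called higher without iNKT2 replicate 2.

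Markers of other cells were examined for each group. Genes of B cells and red cells had no member, with 7 and 9 genes in the table and summed levels of 1.896 to 5.67 and 0 to 0.948 normalized counts in iNKT2 and of 3.81 to 4.61 and 3.81 to 6.15 in iNKT17 cells. Myeloid and dendritic genes had 3 of 19 as members, none called, with sums of 91.0 to 107 in iNKT2 and 47.6 to 80.1 in iNKT17 cells. Epithelial genes had 4 of 12 as members, none called, with sums of 288 to 348 and 270 to 380, of which Ly75, also expressed by other cells, made up most, while Foxn1 was at 0 in all 4. Genes of endothelium and stroma summed to 519 to 554 and 441 to 464, with Pecam1 uncalled (adjusted p = 0.165) and Cdh5 at 0; Flt4, the receptor VEGFR3, was called higher, with 0 and 0 normalized counts in the iNKT2 libraries and 88.4 and 94.6 in the iNKT17 libraries. Genes of double-positive thymocytes, the precursors of iNKT cells, had 12 of 13 as members, 2 lower, with sums of 3976 to 4328 in iNKT2 and 2823 to 3764 in iNKT17 cells. The 2 were Ccr9 and Themis, and Rag1 read 873 and 1097 normalized counts in the iNKT2 libraries and 526 and 941 in the iNKT17 libraries. Genes of iNKT1 and NK cells summed to 375 to 397 and 464 to 525 over 20 genes, with Klrb1c, NK1.1 in other strains, at 15.1 and 12.3 normalized counts in the iNKT2 libraries and 186 and 154 in the iNKT17 libraries (12.4-fold, adjusted p = 2.25e-05), Stat4 higher and Gimap3 lower. Of genes of γδ T cells, Cd163l1 and 5830411N06Rik, scavenger receptor genes that γδ T17 cells express, rose, Cd163l1 by 2.75 on the log2 scale; the 3 genes of this list in the table summed to 1219 to 1819 in iNKT2 and 5647 to 6349 in iNKT17 cells. Of regulatory T cell genes, 2 were members, with a median log2 difference of 1.94. Ikzf2 was not called and the other 1 was called higher. Foxp3 was at 0 in all 4 libraries, and the sums were 1901 to 2044 in iNKT2 and 1727 to 1995 in iNKT17 cells. The part of other cells in the differences was not tested. Without replicate 2 of both subsets, the libraries with keratin reads, a fit added after the data were seen called 8 of the type 17 transcription factors, 8 of the type 17 receptors and 20 of the other type 17 genes higher, and 10 of the type 2 genes, 7 of the costimulatory and inhibitory receptors and 4 of the interferon response genes lower.

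The calls with the smallest standard errors among those of at least 2-fold were Inpp4b, Psap, Rbl2, Sdc1 and Ckb. Inpp4b, a phosphatase of inositol lipids, read 6467 and 5793 normalized counts in the iNKT2 libraries and 1263 and 1259.9 in the iNKT17 libraries (4.86-fold lower, log2 difference -2.28, SE 0.14, adjusted p = 1.62e-06). Psap, the precursor of the saposins that load lipids onto CD1d, read 1364 and 1364 normalized counts in the iNKT2 libraries and 3472 and 3568 in the iNKT17 libraries (2.58-fold, log2 difference 1.37, SE 0.14, adjusted p = 8.16e-05). Rbl2, the cell cycle repressor p130, read 2006 and 1986 normalized counts in the iNKT2 libraries and 5682 and 5162 in the iNKT17 libraries (2.72-fold, log2 difference 1.44, SE 0.14, adjusted p = 6.12e-05). Ckb, brain-type creatine kinase, read 461 and 489 normalized counts in the iNKT2 libraries and 2122 and 2158 in the iNKT17 libraries (4.51-fold, log2 difference 2.17, SE 0.15, adjusted p = 3.45e-06). In these genes the libraries of a subset differed by little and both subsets were well above the floor. Error grew at low levels: the median SE of the log2 difference was 0.76 over the 982 members whose higher group mean was under 30 and 0.17 over the 1285 whose higher mean was over 1000. Between these levels the share called rose from 2.65% higher and 1.73% lower to 12.4% higher and 9.57% lower.

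The same comparison at 25 weeks, on other animals, went in the same direction for most calls. In aged mice, 695 members were called higher and 726 lower in iNKT17 than in iNKT2p cells (over all genes tested, 6.44 and 6.99%). Of the 700 genes higher at 6 weeks, 500 were called higher at 25 weeks, 71.4% of the young and 71.9% of the aged list, and none was called lower. Of the 428 lower at 6 weeks, 291 were called lower at 25 weeks, 68.0% of the young and 40.1% of the aged list, and none was called higher. These counts come from 1 fit that shares its estimate of spread, but from separate libraries. Across the 10679 members the 2 log2 differences had a Pearson r of 0.72 and a Spearman rho of 0.58; genes are not independent replicates. The median difference at 25 weeks was 1.30 for the young higher calls and -1.39 for the young lower calls. The number of genes called at 25 weeks fell from 1493 over all genes tested to 1000 without iNKT2p replicate 1, to 739 without iNKT2p replicate 2, to 846 without iNKT17 replicate 2 and to 989 without iNKT17 replicate 1.

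Where the difference between the ages was itself tested, 54 members had a lower iNKT17 minus iNKT2 difference at 25 weeks and 2 a higher one, out of 11123 genes tested (0.485 and 0.018%). Of the 54, 24 were higher, 11 lower and 19 uncalled in iNKT17 cells at 6 weeks. Il23r read 480.5 and 607 in iNKT2p and 4889 and 5159 in iNKT17 cells of aged mice, so its log2 difference was 3.22 in place of 5.65 (difference between ages -2.44, SE 0.23, adjusted p = 0.00121). The aged iNKT2p libraries were several-fold above the young iNKT2 libraries and the iNKT17 libraries lay closer to those at 6 weeks. The same was measured for Il1r1, Blk and Sdc1. The aged iNKT2p level was 10.8% of the aged iNKT17 level for Il23r, 13.6% for Il1r1, 7.46% for Blk and 11.2% for Sdc1, and iNKT17 cells within the iNKT2p sort and a higher level in its own cells cannot be told apart here. In the same groups Igf1r read 2440.1 and 3025 and 6483 and 6629, above the values at 6 weeks in both subsets and with a narrower difference between them (-2.44, adjusted p = 0.0292). Conversely, Igfbp4 read 458 and 712 and 25.7 and 34.0, a wider fall than at 6 weeks (-3.05, adjusted p = 0.00526), as did Slamf6 with 648 and 689 and 95.4 and 109 (-1.32, adjusted p = 0.0316). Genes of double-positive thymocytes moved with this change: their summed level was 10177 and 10258 in iNKT2p and 1380 and 1776 in iNKT17 cells at 25 weeks, and Rag1 read 3371 and 3424 and 64.7 and 176. The 2 genes with a higher difference were H2-Q10, an MHC class Ib gene with close copies, at 95.8 and 107 in aged iNKT2p and 1365 and 844 in aged iNKT17 cells, and Iigp1, an interferon-induced GTPase, at 335 and 277 and 296 and 219 after 299.8 and 332 and 47.6 and 27.5 at 6 weeks; both were chosen after their values were seen, as was Rag1. The count of 56 was unstable, with 16 to 297 genes over fits that left out 1 library each: 16 and 17 without either iNKT2p library, 18 and 25 without either young iNKT17 library, 93 without iNKT2 replicate 1 and 297 without iNKT2 replicate 2.

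**Figure D4:**
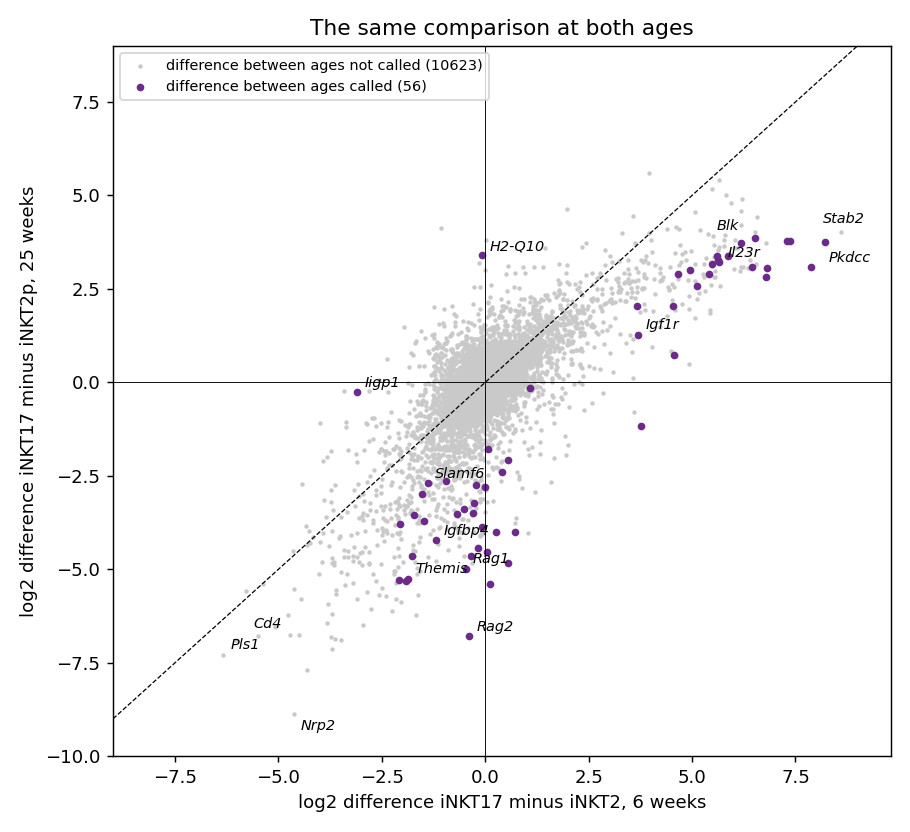
Log2 difference of iNKT17 minus iNKT2 cells at 6 weeks (horizontal axis) and of iNKT17 minus iNKT2p cells at 25 weeks (vertical axis) for the 10679 members; the dashed line marks equal differences, and the 56 genes whose difference changed between the ages are drawn darker. The type 17 genes Il23r and Blk lie under the line on the right, and Rag1, Rag2 and Themis lie under it in the lower part.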

How the data were processed

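The authors trimmed reads of a strand-specific total RNA kit (Trim Galore 0.4.1 with Cutadapt 1.9.1, FastQC 0.11.4), mapped them to mm10 by STAR 2.5.0c, counted them by featureCounts on 1 strand at a mapping quality of 10 or more, which drops most multiply mapped reads, and scaled them by DESeq2. The deposited signal is therefore a normalized count. All of them (100%) were whole multiples of the value of 1 read within 0.01, so reads were recovered. The table's 9 columns of the authors' adjusted p-values were not used.

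Log2(normalized count + 1) was fitted by limma 3.58.1 (R 4.3.3) with a variance trend over 8 libraries, young and aged iNKT2 and iNKT17; iNKT1 libraries stayed out because they vary more. Genes needed 10 in 2 of the 8 libraries, which left 11123 and kept every member. P-values were adjusted by Benjamini-Hochberg per comparison. Medians and counts describe gene lists without a test. The script was checked on simulated counts.

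The members and lists were chosen with earlier results of these data known. Named genes were the 15 largest rises and 15 largest falls with separated groups and a mean of at least 100, up to 6 called members per list, defining genes, the highest marker per cell type and the 5 smallest SEs; further genes were picked with their values in view. Some items are not reported here and are left out of the counts and medians of the lists, but not of those over all genes or members. Results were recomputed under other pseudocounts (0.5, 5), filters, scalings, sample sets and variance models, edgeR 4.0.16 and DESeq2 1.42.0 on the recovered reads, and each library left out. Labels name the RNeasy Plus Mini kit, the methods the Micro kit.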

Additional observations from a re-analysis of the deposited data

Results flagged for a closer look

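The iNKT17 minus iNKT2 comparison differed between 6 and 25 weeks by the test of the difference itself (limma, adjusted p under 0.05 over 11123 genes) for 54 members with a lower and 2 with a higher value at 25 weeks. Of the genes described above, the drop in the log2 difference was largest for Serpinb1a (-4.80, adjusted p = 0.0397) and Pkdcc (-4.46), followed by Tmem176a (-3.97), Pde5a (-3.74), Cpe (-3.61), Kcnk1 (-3.51) and Mtcl1 (-3.35). These genes were low in the young iNKT2 libraries, and each read more in both aged iNKT2p libraries, as Pde5a with 5.67 and 10.4 in iNKT2 and 169.6 and 158 in iNKT2p cells. Ptgdr2 (-2.66), Il1r1 (-2.51), Blk (-2.46), Il23r (-2.44), Igf1r (-2.44) and Sdc1 (-2.33) also had a narrower difference at 25 weeks. Genes that were lower in iNKT17 cells at both ages and fell further behind at 25 weeks were Themis (-3.38), Csf1 (-3.22), Igfbp4 (-3.05) and Slamf6 (-1.32). The cause was not tested.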

How the results depend on the processing

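Of 127 genes named by the rule and reported, 118 were called at 6 weeks, and 81 of these kept call and direction in all 17 alternatives, against 323 of 700 higher and 110 of 428 lower calls over all members. No called gene changed sign; of the uncalled, Zbtb16 did without iNKT2 replicate 2 (0.020; -0.55 without replicate 1). The 1133 calls at 6 weeks stayed within 1.5 times under every change of pseudocount, filter, scaling, tool or variance model (798 to 1385), and leaving out 1 library gave 577 to 1772 (408 to 1220 higher, 168 to 552 lower). The lower calls dropped from 429 to 279 with the spread of 12 libraries. Leaving out replicate 2 of both young groups, an alternative added after the data were seen, gave 792 higher and 317 lower calls, 783 of the 1109 shared with the 1133. At 25 weeks, leaving out 1 library gave 739 to 1000 calls, 354 to 526 higher and 373 to 604 lower, all under the 1493 (716 higher, 777 lower) of the full fit. The difference between the ages was the least stable: 56 calls (2 positive, 54 negative) became 27 with no filter (25 negative), 17 with the spread of 12 libraries (0 positive by limma, 147 at an unadjusted p under 0.05, and 17 negative), 33 with no variance trend (30 negative), 85 by edgeR (82 negative) and 177 by DESeq2 (16 positive, 161 negative), and 16 to 297 without 1 library (1 to 17 positive, 15 to 280 negative). Where a group was left with 1 library, it was assumed to vary like the others. With 2 libraries per group and levels under 30 normalized counts, only wide differences could be called. No label ties a library to a sort, so no pairing by replicate was used. A term shared by the young replicates 2, which pairs the young libraries by their keratin reads and was added after the data were seen, gave 1671 calls at 6 weeks (993 higher, 678 lower, 1132 shared with the 1133) and 146 calls for the difference between the ages (11 positive, 135 negative).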

Other observations

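The genes named here lie outside the lists and were chosen after their values were seen, so their tests are descriptive and support no theme. Enzymes and carriers of lipids stood on both sides. Ugcg, which makes glucosylceramide, the first glycosphingolipid, read 5788 and 5242 normalized counts in the iNKT2 libraries and 1486 and 1741 in the iNKT17 libraries (3.42-fold lower, log2 difference -1.78, SE 0.16, adjusted p = 2.71e-05). St8sia1 and St8sia6, sialyltransferases that extend glycolipids or glycoproteins, were 3.62-fold and 7.06-fold lower (limma, adjusted p = 0.000842 and 0.000171). Gm2a, the activator protein for the breakdown of ganglioside GM2, went the other way, with 193 and 189 normalized counts in the iNKT2 libraries and 1259 and 1009.8 in the iNKT17 libraries (5.95-fold higher, log2 difference 2.56, SE 0.23, adjusted p = 2.46e-05), as did Psap above. These 4 genes kept their calls in all 17 alternatives.

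Further differences concerned receptors and enzymes of cyclic nucleotides. F2r, the thrombin receptor PAR1, read 819.98 and 1006 normalized counts in the iNKT2 libraries and 4953 and 4429 in the iNKT17 libraries (5.14-fold higher, log2 difference 2.37, SE 0.16, adjusted p = 4.08e-06), and Plxnd1, a semaphorin receptor, 23.6 and 112 normalized counts in the iNKT2 libraries and 1027 and 1280.5 in the iNKT17 libraries (17.0-fold higher, log2 difference 4.44, SE 0.50, adjusted p = 0.000143). Lgals3, galectin-3, and Cd7, a surface protein of T and NK cells, were 12.6-fold and 6.80-fold higher (limma, adjusted p = 4.79e-07 and 1.80e-05). Ptger4, the prostaglandin E2 receptor EP4, was 3.32-fold lower with 1656 and 1488 normalized counts in the iNKT2 libraries and 442 and 506 in the iNKT17 libraries (log2 difference -1.73, SE 0.17, adjusted p = 4.79e-05), opposite to the prostaglandin D2 receptor gene Ptgdr2. The phosphodiesterases of cyclic AMP Pde3b and Pde4d were 2.36-fold and 2.84-fold lower (limma, adjusted p = 0.000600 and 0.000160), in the direction of Pde7b and against that of Pde5a. Whether these differences share a source was not tested.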
